A study of Rattus norvegicus with 26 samples.

Results

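The genes Prx, Pmp2, Pmp22, Egr2 and Ncmap, 5 genes of Schwann cell myelin, the sheath of peripheral axons, were followed through spinal cord injury and transplantation of human umbilical cord mesenchymal stem cells (hUC-MSC). They were taken by gene name from the joint table of read counts, which lists 32883 rat genes, and all 5 were found and were among the 17990 genes tested. The rule that took the rows used names alone and no measured value. The 5 names themselves were chosen with earlier results of these data known.

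The 26 libraries were RNA-seq libraries of spinal cord of wild type Sprague-Dawley rats, adult females of 250 g, each labelled as postnatal day 70. Intact cords (n = 4) were uninjured and not transplanted. The paper names this group intact/sham and also normal rats, so whether it had a sham operation is not settled. All other rats had the cord compressed at T10 for 1 min with an aneurysm clip of 60 g force. The sub-SCI group (n = 3) was injured and not transplanted, and stands for the start of transplantation, day 7 after injury. At that day other rats received an intrathecal injection of PBS (+PBS) or hUC-MSC (+MSC), and cords were collected 1, 2 and 4 weeks later, which gave +PBS-1w (n = 3), +PBS-2w (n = 2), +PBS-4w (n = 4), +MSC-1w (n = 3), +MSC-2w (n = 3) and +MSC-4w (n = 4). The study's methods state that rats were given cyclosporin A daily over the whole experiment. The methods also give a laminectomy before the compression and penicillin after surgery. Each library came from a 5 mm segment centred on the lesion site, a piece of whole tissue that holds glia, neurons, vessels, meninges, invading cells and any attached nerve root.

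Myelin of the cord is made by oligodendrocytes, and Schwann cells make that of spinal roots and nerves. After demyelinating injury, Schwann cells are also found inside the cord, where they wrap axons with peripheral-type myelin. Egr2 (Krox-20) is the transcription factor that drives Schwann cells into myelination, periaxin (Prx) links the sheath to the basal lamina, Pmp22 is a membrane protein of compact peripheral myelin, Pmp2 (FABP8) is a fatty acid binding protein of the same myelin, and Ncmap is a small membrane protein of non-compact myelin.

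The 250 bases before the annotated start are shown for the members that had an entry in the RefSeq promoter table (build GRCr8), 4 of 5, because 3 of these genes moved together from library to library and Egr2 moved apart from them. Capitals mark GGAATG, the core of TEAD sites, on either strand in Prx and Pmp22, and the CArG box, the binding element of serum response factor, in Egr2.
Prx: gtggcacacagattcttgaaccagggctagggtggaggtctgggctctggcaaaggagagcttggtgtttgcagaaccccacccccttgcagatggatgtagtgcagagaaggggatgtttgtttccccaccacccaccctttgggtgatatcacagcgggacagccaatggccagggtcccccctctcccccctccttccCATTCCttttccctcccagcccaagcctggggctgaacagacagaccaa
Pmp22: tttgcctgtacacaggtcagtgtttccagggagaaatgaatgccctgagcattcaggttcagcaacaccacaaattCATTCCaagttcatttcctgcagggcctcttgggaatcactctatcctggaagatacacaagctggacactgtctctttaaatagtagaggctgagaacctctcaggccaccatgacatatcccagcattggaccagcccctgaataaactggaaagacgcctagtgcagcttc
Ncmap: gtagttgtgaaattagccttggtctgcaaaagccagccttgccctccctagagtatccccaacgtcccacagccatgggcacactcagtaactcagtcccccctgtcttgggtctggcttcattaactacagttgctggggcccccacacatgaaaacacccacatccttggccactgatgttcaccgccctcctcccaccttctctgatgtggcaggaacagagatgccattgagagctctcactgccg
Egr2: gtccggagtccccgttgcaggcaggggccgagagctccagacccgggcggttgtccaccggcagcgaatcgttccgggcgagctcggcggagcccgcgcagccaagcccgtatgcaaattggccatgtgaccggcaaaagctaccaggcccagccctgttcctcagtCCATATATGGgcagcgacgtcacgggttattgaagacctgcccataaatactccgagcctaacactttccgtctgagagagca

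The windows lie at chr1:91914171-91914420 on the plus strand (Prx), chr10:48294682-48294931 on the plus strand (Pmp22), chr5:152902415-152902664 on the minus strand (Ncmap) and chr20:21054442-21054691 on the minus strand (Egr2). GGAATG stood at bases -49 to -44 in Prx and -174 to -169 in Pmp22, counted from the start, and in 12.1% of all 33469 windows of this length. The CArG box stood at -83 to -74 in Egr2 and in 1.497% of all windows. The EGR motif GCGNGGGCG (4.29% of all windows), and ACAAAG (16.3%) and ACAAT (30.0%), letters of SOX sites, were in none of the 4 windows when both strands were read. A match of letters is a description and not a binding site.

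Library totals ran from 19496602 to 43468509 counts, and values below are CPM, read counts divided by the library total and scaled by TMM, unless another unit is named. Of 6 Schwann cell genes used as a check (Prx, Pmp2, Ncmap, Drp2, Cdh19 and Cldn19), all had counts in 25 of 26 libraries, so transcripts of these genes were present in Intact cord too. The exception was Intact replicate 1. That library held 7 counts of Cldn19, the claudin of Schwann cell autotypic junctions, against 127 to 228 in the other Intact libraries, 58 counts of Prx, 1 count of Egr2 and none of Ncmap. The same library was less depleted of Drp2, at 54.9 CPM (106 to 121 in the other Intact libraries), and of Cdh19, at 13.6 CPM (16.8 to 19.2). Its central myelin genes were at the level of the other Intact libraries (a summed 57090 CPM over 12 genes, against 52407 to 59334 in the whole group), and its summed fibroblast markers were the lowest of the group (221 CPM against 697 to 1360). Tests of sub-SCI against Intact and some further values are therefore given with and without this library. In whole tissue, fewer Schwann cells and less RNA per cell cannot be told apart.

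Prx differed widely between libraries of the same group. It stood at 3.16, 120.2, 78.0 and 64.3 CPM in Intact, at 22.3, 23.6 and 66.3 CPM in sub-SCI, at 32.3, 36.7 and 243 CPM in +PBS-1w, at 72.4 and 123 CPM in +PBS-2w, and at 116, 356, 264 and 187 CPM in +PBS-4w. In the transplanted cords it stood at 156, 102 and 69.8 CPM in +MSC-1w, at 121, 21.7 and 22.5 CPM in +MSC-2w, and at 33.4, 137, 158 and 99.7 CPM in +MSC-4w. The lowest mean was in sub-SCI (37.4 ± 25.02 CPM, SD, n = 3) and the highest in +PBS-4w (231 ± 103 CPM, SD, n = 4), and in the order of group means all 7 pairs of neighbours had ranges that overlapped.

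Ncmap followed Prx closely. Its counts were 0 in Intact replicate 1, which allows up to 0.164 CPM (3 counts, counting error only), and its level was 14.4, 7.72 and 5.62 CPM in the other Intact libraries. In sub-SCI it was 2.67, 1.23 and 4.92 CPM, and these 3 libraries were below the 3 other Intact libraries without overlap, as in 36.2% of all genes tested. In +PBS-4w it reached 13.7, 41.4, 34.6 and 21.4 CPM. Across all libraries but Intact replicate 1, Ncmap held between 5.21% and 13.1% of the counts of Prx.

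Pmp22 was the most abundant member at every stage, also per length. Its RPKM, read counts scaled to gene length and library size, averaged 153 ± 52.8 (SD, n = 3) in Intact without replicate 1, against 18.9 ± 6.30 for Prx, 21.6 ± 7.37 for Pmp2, 18.3 ± 9.07 for Ncmap and 0.774 ± 0.204 for Egr2. In CPM, Pmp22 stood at 105, 422, 259 and 228 in Intact, at 204, 177 and 266 in sub-SCI and at 471, 928, 781 and 578 in +PBS-4w. All 4 +PBS-4w libraries were above all 4 Intact libraries, as in 22.4% of all genes tested. Intact replicate 1, nearly empty of Prx, thus still held 1932 counts of Pmp22. Which cells held them was not tested.

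Pmp2 varied least among groups. It measured 4.96, 40.4, 25.3 and 21.7 CPM in Intact, 40.5, 25.2 and 55.5 CPM in sub-SCI, 64.8, 32.03, 46.2 and 47.9 CPM in +PBS-4w and 72.5, 43.9 and 44.9 CPM in +MSC-1w. Only in +MSC-1w did its range clear that of Intact, as the ranges of 24.5% of all genes tested did upward. Its ratio to Prx ran from 8.99% to 55.9% of Prx counts over the 4 +PBS-4w libraries, the widest range within a group over the members once Intact replicate 1 was left out.

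Egr2, the least abundant member per length, gave a different order. It measured 0.0546, 3.21, 2.40 and 1.8998 CPM in Intact, where 1 count in replicate 1 gives an exact 95% Poisson interval of 0.00138 to 0.304 CPM. In sub-SCI it was 8.83, 10.001 and 13.1 CPM, in +PBS-1w 4.37, 4.85 and 22.3 CPM, in +PBS-2w 10.4 and 8.28 CPM, and in +PBS-4w 15.1, 30.9, 26.8 and 18.7 CPM. The +MSC libraries measured 11.0, 7.51 and 5.16 CPM at 1 week, 7.94, 3.57 and 4.73 CPM at 2 weeks, and 4.89, 11.6, 14.8 and 7.14 CPM at 4 weeks. All 22 libraries of injured cord were above all 4 Intact libraries. Taken group by group, 18.3% to 32.9% of all genes tested had injured libraries all above Intact. The share over the 22 libraries at once was not computed. Of 7 pairs of neighbours in the order of means, the 2 that did not overlap were the lowest, Intact below +MSC-2w, and the highest, +PBS-4w above sub-SCI.

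**Figure D1:**
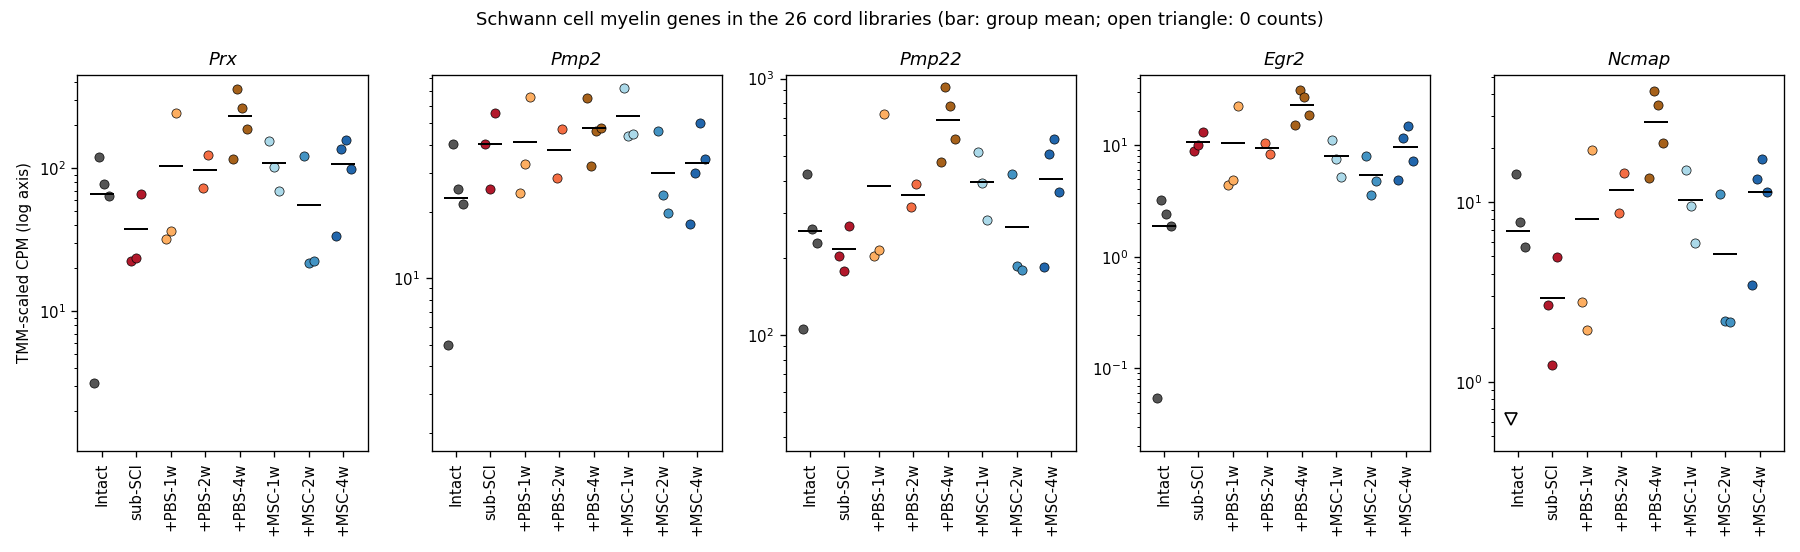
Each point is 1 library, the vertical axes give TMM-scaled CPM on log scales, the bar is the group mean, and the open triangle marks the library with 0 counts of Ncmap. Egr2 sits above all Intact libraries in all 22 injured libraries, and 18.3% to 32.9% of all genes tested do so group by group. Prx, Pmp22 and Ncmap of sub-SCI reach down to 22.3, 177 and 1.23 CPM. Intact replicate 1 lies at the bottom of the Intact group in each panel.

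The first comparison, sub-SCI against Intact, covers the injury with its surgery and drugs up to the time of transplantation. Compression, surgery and drugs cannot be told apart in it. Egr2 was the member that rose, by 2.47 ± 0.62 on the log2 scale (SE; edgeR quasi-likelihood, adjusted p = 0.00161). Without Intact replicate 1 it rose by 2.15 ± 0.54 (adjusted p = 0.002). The other 4 did not pass the test. Prx had a log2 fold change of -0.83 ± 0.85 (adjusted p = 0.415), Ncmap of -1.24 ± 0.94 (0.26), Pmp22 of -0.24 ± 0.47 (0.684) and Pmp2 of 0.80 ± 0.49 (0.157), and without Intact replicate 1 these were -1.17, -1.59, -0.43 and 0.53. A gene was called when its log2 fold change was beyond 1 and its p, adjusted over all genes tested, was under 0.01. With that rule 1 of 5 members was called, where 34.1% of all genes tested were. Fitted on these 2 groups alone, Egr2 had a like log2 fold change (2.51) and lost the call (adjusted p = 0.0118 in edgeR and 0.0181 in DESeq2).

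Against the same Intact libraries, Egr2 was also called in +PBS-1w (2.45 ± 0.62, adjusted p = 0.00223), +PBS-4w (3.58 ± 0.62, adjusted p = 5.74e-05) and +MSC-4w (2.33 ± 0.59, adjusted p = 0.00533). In +PBS-2w its log2 fold change was 2.29 ± 0.67 (adjusted p = 0.0108), in +MSC-1w 2.05 ± 0.62 (0.0151) and in +MSC-2w 1.5 ± 0.62 (0.0986), by the same edgeR test, and none of these 3 passed. The share of all genes called was 26% in +PBS-1w, 14.5% in +PBS-2w, 24% in +PBS-4w, 10.5% in +MSC-1w, 6.06% in +MSC-2w and 8.78% in +MSC-4w. Genes whose injured libraries were all above all Intact libraries, as those of Egr2 were, made up 32.9% of all genes tested in sub-SCI, 28.5%, 31.1% and 22.4% in +PBS-1w, +PBS-2w and +PBS-4w, and 24.5%, 18.8% and 18.3% in +MSC-1w, +MSC-2w and +MSC-4w. The +PBS-1w call rested on replicate 3, since without it Egr2 had a log2 fold change of 1.27 (adjusted p = 0.0863). The +MSC-4w call was lost without +MSC-4w replicate 2 (adjusted p = 0.0157) or 3 (0.0206), or Intact replicate 3 (0.0122) or 4 (0.0152), with log2 fold changes of 2.22, 2.05, 2.46 and 2.33. These comparisons share the Intact libraries and are not independent.

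The only other member called against Intact was Pmp22 in +PBS-4w, with a rise of 1.44 ± 0.44 (adjusted p = 0.00923), and this call was lost without Intact replicate 1 (1.24 ± 0.45, adjusted p = 0.0286) and without any 1 of Intact replicates 3 and 4 and +PBS-4w replicates 2, 3 and 4. At that stage Prx had a log2 fold change of 1.80 ± 0.80 (adjusted p = 0.0629), Ncmap of 1.99 ± 0.85 (0.053) and Pmp2 of 1.04 ± 0.46 (0.0605) by edgeR. Without Intact replicate 1 the same test gave 1.45 (adjusted p = 0.105) for Prx, 1.64 (0.0782) for Ncmap and 0.76 (0.124) for Pmp2. In the 5 other groups Prx, Pmp2, Pmp22 and Ncmap lay between -0.43 and 1.22 against Intact, and none was called.

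**Figure D2:**
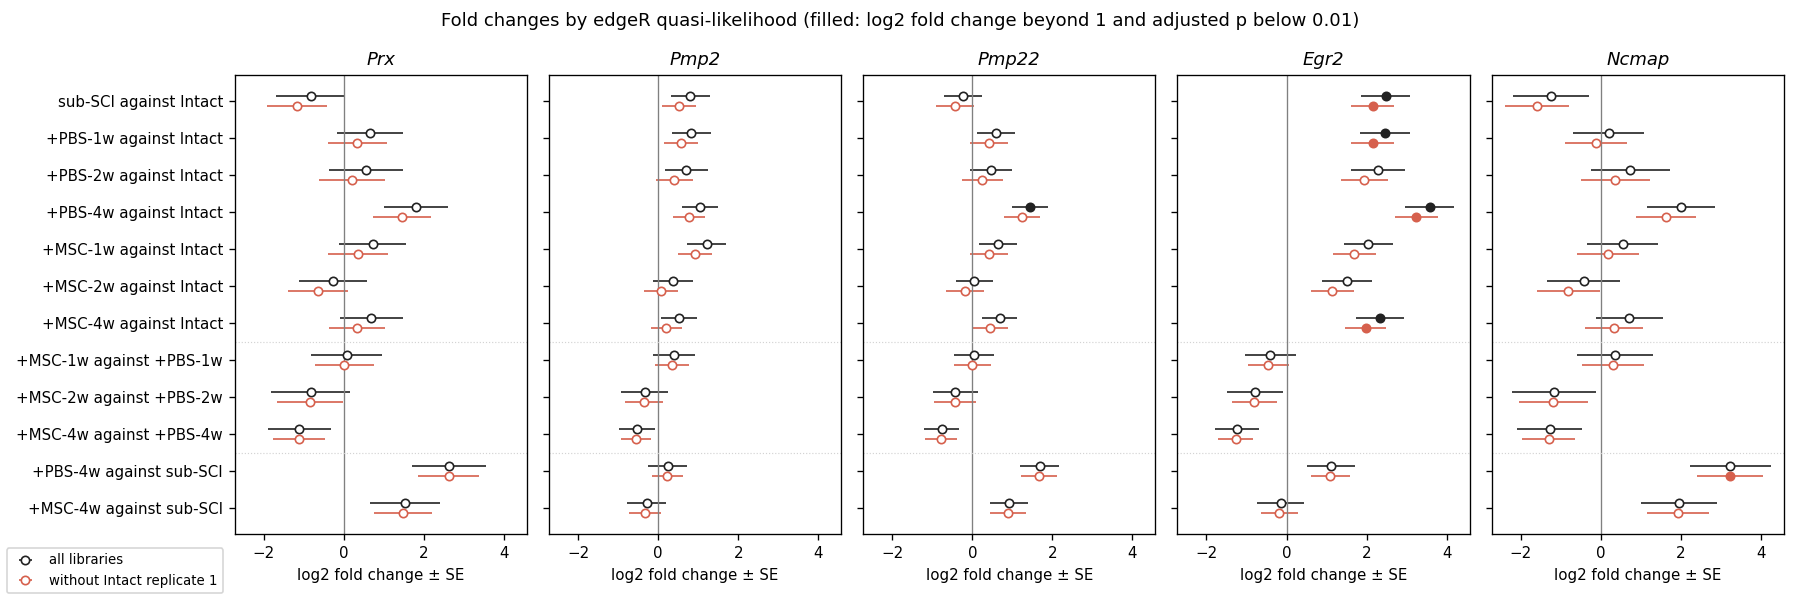
Log2 fold change (horizontal axis) with its SE for 12 comparisons (rows) and 5 members (panels); black, all 26 libraries; red, without Intact replicate 1; filled points passed the test. Egr2 is right of 0 in all 7 comparisons with Intact and left of 0 in the 3 of +MSC with +PBS, where no point is filled.

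The relation of Egr2 to the structural genes differed between Intact and injured cord. Egr2 held 2.67%, 3.08% and 2.96% of the counts of Prx in Intact replicates 2, 3 and 4, a narrow range although Prx itself spanned 64.3 to 120.2 CPM. In Intact replicate 1 it was 1 count against 58 of Prx, or 1.72% (exact 95% binomial interval 0.0429% to 9.99%, counting error only). In sub-SCI the ratio was 39.5%, 42.3% and 19.7%. It was at least 6.55% in each of the 22 injured libraries, with a median of 10.1%, so no injured library fell to the highest Intact value. At 4 weeks it ran from 8.68% to 13.0% in +PBS-4w and from 7.16% to 14.6% in +MSC-4w, and these ranges overlapped. The ratio was formed after the values were seen and is given without a test. How many other genes have a ratio to Prx that behaves alike was not computed.

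Ratios to Prx of the other members showed where Prx itself was low. Pmp2 held 32.4% to 33.8% of Prx counts in Intact without replicate 1 and 83.6% to 181% in sub-SCI. Pmp22 held 331% to 354% in the same Intact libraries, 401% to 911% in sub-SCI and 3331% in Intact replicate 1. In +MSC-2w, replicates 2 and 3, with Prx at 21.7 and 22.5 CPM, had Pmp22 at 852% and 794% of Prx, against 351% in replicate 1, where Prx was at 121 CPM. Ncmap did not follow this course, as its ratio in sub-SCI (5.21% to 12.0%) overlapped that of Intact (8.75% to 12.0%).

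**Figure D3:**
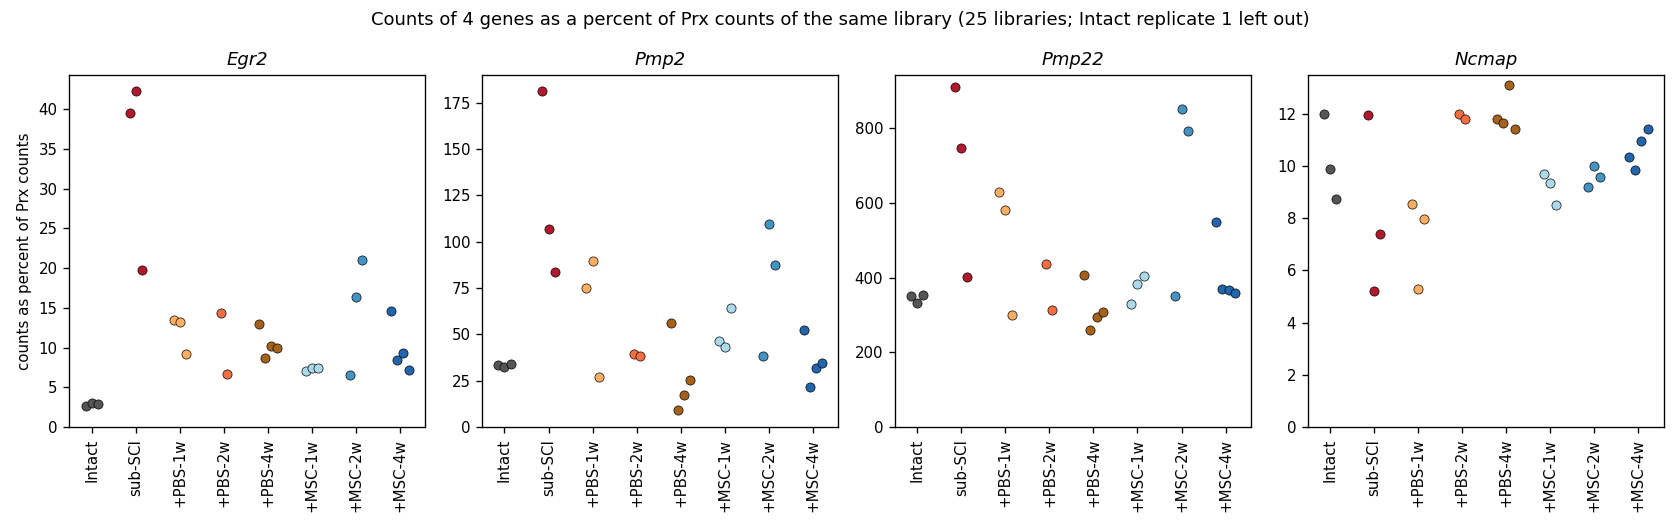
Counts of Egr2, Pmp2, Pmp22 and Ncmap as a percent of Prx counts in the same library (vertical axes), for 25 libraries by group (horizontal axes), without Intact replicate 1. The 3 Intact points of Egr2 lie at 2.67% to 3.08%, below all injured libraries, and those of sub-SCI lie at 19.7% to 42.3%, while the Ncmap panel spans 5.21% to 13.1% in all groups together.

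Cells other than Schwann cells can also hold some of these transcripts, so marker lists were set beside the members. Egr2 is also known from macrophages. All 8 microglia and macrophage markers were called higher in sub-SCI than in Intact, where 16.6% of all genes tested were. Cd68 rose by 7.41, Lgals3 by 5.28, Cd14 by 3.90 and Aif1 by 3.63 on the log2 scale. The summed level of the 8 was 270 to 443 CPM in Intact and 1705 to 5140 CPM over the injured groups, with no marker at 0. All 8 fibroblast and scar matrix markers, among them Postn (5.06) and Col1a1 (4.38), were called higher in sub-SCI, 7 of 8 without Intact replicate 1. Their summed level was 221 to 1360 CPM in Intact, 8081 to 19655 CPM in sub-SCI and 602 to 943 CPM in +MSC-2w, where Egr2 was still above Intact. The part of these or other cell types in the levels of Egr2, Pmp22 or the other members was not tested.

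The neighbours of Egr2 in the control of Schwann cell myelination moved in both directions after injury. Of 14 genes of this list, 5 were called higher and 2 lower in sub-SCI against Intact, beside 16.6% and 17.5% of all genes tested. Nab2, a co-regulator that binds EGR proteins, rose by 2.13 ± 0.32 (adjusted p = 7.52e-06), and Nfatc4, which acts with Sox10 on myelin genes, by 2.67 ± 0.55 (adjusted p = 0.00026). Nrg1, the axonal growth factor that sets myelin thickness through ErbB receptors, fell by 3.10 ± 0.37 (adjusted p = 2.79e-07), and Pou3f2, a POU factor upstream of Egr2, fell by 1.41 ± 0.21 (adjusted p = 6.37e-06). All 7 neuron markers were called lower in the same comparison, with a median log2 fold change of -3.03. The part of neurons or other cord cells in these changes was not tested. In +PBS-4w against Intact 5 of the 14 were called higher and 1 lower, beside 13.3% and 10.7% of all genes tested. The median log2 fold change of the 14 genes was 0.40 in sub-SCI, against -0.02 for all genes tested.

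Genes of the immature and repair Schwann cell were the third group. In sub-SCI against Intact 4 of 15 were called higher and 2 lower, beside 16.6% and 17.5% of all genes tested. In edgeR Ngfr, the low-affinity neurotrophin receptor, rose by 2.84 ± 0.48 (adjusted p = 3.01e-05). Jun, the factor of the repair state, rose by 1.43 ± 0.21 (adjusted p = 5.6e-06). Ncam1 fell by 1.22 and Shh by 1.69. All of these genes are also expressed by other cells of the cord.

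Further structural genes of peripheral myelin and its contacts (15 genes) gave 2 called higher and 1 lower in sub-SCI, with a list median of -0.30. Of all genes tested, 16.6% were called higher and 17.5% lower there. Gldn, which assembles nodes of Ranvier, rose by 2.39 ± 0.59 (adjusted p = 0.00146), and Mal, a proteolipid that both kinds of myelin share, fell by 1.40 ± 0.29 (adjusted p = 0.000262). In +PBS-4w 4 were called higher and 1 lower against Intact, beside 13.3% and 10.7% of all genes tested. The list median was 0.78, beside 0.05 for all genes. Of 12 oligodendrocyte genes of central myelin, 7 were called lower and none higher in sub-SCI, and 6 lower and none higher in +PBS-4w, with Ermn (-1.86) and Mobp (-2.03) among the lowest adjusted p in sub-SCI. The median log2 fold change of the central list was -1.14 in sub-SCI and -1.02 in +PBS-4w, where those of the 5 Schwann cell myelin genes were -0.24 and 1.80.

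Between day 7 and 4 weeks after PBS injection, +PBS-4w against sub-SCI, all 5 members had positive log2 fold changes. Ncmap had 3.24 ± 1.00 (adjusted p = 0.022), Prx 2.63 ± 0.92 (0.0401), Pmp22 1.68 ± 0.49 (0.0161), Egr2 1.10 ± 0.60 (0.189) and Pmp2 0.24 ± 0.49 (0.76) in edgeR, so that none passed the limit of 0.01, where 7.37% of all genes did. For Prx, Pmp22, Egr2 and Ncmap, all 4 +PBS-4w libraries were above all 3 sub-SCI libraries, as in 12.5% of all genes tested. The calls turned on the model. Ncmap was called without Intact replicate 1 in the shared fit (adjusted p = 0.00667), 2 members were called by DESeq2 on all libraries, 4 by DESeq2 on the 2 groups alone and 3 by edgeR without the replicate 1 libraries. Between sub-SCI and +MSC-4w, where 16.3% of all genes were called, no member was (Prx 1.52 ± 0.87, adjusted p = 0.168; Ncmap 1.96 ± 0.95, adjusted p = 0.104), and DESeq2 on the 2 groups called Ncmap.

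From 1 to 4 weeks after PBS injection, +PBS-4w against +PBS-1w, no member was called (0.0389% of all genes were). Log2 fold changes ran from 0.22 ± 0.49 for Pmp2 to 1.80 ± 0.93 for Ncmap. Their size turned on +PBS-1w replicate 3. Without it Ncmap was at 3.55, Prx at 2.74, Egr2 at 2.31 and Pmp22 at 1.72, still with no call. In +MSC-4w against +MSC-1w no gene of the 17990 was called, 0% of all, and the members ran from -0.70 ± 0.48 (Pmp2) to 0.28 ± 0.59 (Egr2).

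The question of the study is what hUC-MSC change, and no member was called between +MSC and +PBS at any week. At 1 week log2 fold changes lay between -0.40 ± 0.63 (Egr2) and 0.39 ± 0.52 (Pmp2), and without +PBS-1w replicate 3 between 0.78 (Egr2) and 2.11 (Ncmap). At 2 weeks they lay between -1.16 ± 1.05 (Ncmap) and -0.34 ± 0.58 (Pmp2), with 2 +PBS libraries. At 4 weeks all 5 were below 0, at -1.28 ± 0.82 for Ncmap, -1.25 ± 0.55 for Egr2, -1.11 ± 0.78 for Prx, -0.76 ± 0.44 for Pmp22 and -0.53 ± 0.45 for Pmp2, with adjusted p in edgeR from 0.179 to 0.512. The shares of all genes called were 0.0111%, 0% and 0.495% in this edgeR fit. The study used DESeq2 with the same limits, and at each week it reported more genes reversed by hUC-MSC than were called here. The absence of a call is no sign that the groups were alike.

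Egr2 came nearest to a difference. Its 3 +MSC-2w libraries (3.57 to 7.94 CPM) were below both +PBS-2w libraries (8.28 and 10.4 CPM), and its 4 +MSC-4w libraries (4.89 to 14.8 CPM) were below the 4 +PBS-4w libraries (15.1 to 30.9 CPM). At 1 week they overlapped. Of all genes tested, 18.4% at 2 weeks and 4.47% at 4 weeks had +MSC libraries wholly below +PBS libraries. Averaged over the 3 weeks the log2 difference in Egr2 was -0.81 ± 0.36 (edgeR, adjusted p = 0.11, where 2.57% of all genes were called) and -0.84 ± 0.29 without Intact replicate 1 (adjusted p = 0.0416), neither past 0.01 nor beyond 1. Leaving out 1 library gave -0.94 to -0.42, the latter without +PBS-1w replicate 3 (adjusted p = 0.412). Without all replicate 1 libraries, which leaves 1 in +PBS-2w, it was -1.09. DESeq2 on the groups compared gave an adjusted p of 0.0374 for this mean and 0.0271 at 4 weeks. DESeq2 on all libraries gave 0.0829 and 0.138, and none of these passed 0.01. The change of the +MSC against +PBS difference from week 1 to week 4 was called for no gene, 0% of all. For the 5 members it lay between -1.63 ± 1.26 (Ncmap) and -0.81 ± 0.66 (Pmp22), and without +PBS-1w replicate 3 between -3.39 (Ncmap) and -1.44 (Pmp2).

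In the lists around the members, Nrg1 was the exception at 4 weeks. It was higher in +MSC-4w than in +PBS-4w by 1.82 ± 0.31 (adjusted p = 0.00428; 1.79 and 0.00646 without Intact replicate 1), and was the 1 gene of 14 in the control list that was called. No gene was called in the other lists, the 15 other peripheral myelin genes, 15 immature and repair genes, 12 central myelin genes and the markers of microglia, fibroblasts, endothelium, astrocytes, neurons, sensory neurons and muscle. Nrg1 is also made by neurons of the cord. The 7 neuron markers had a median log2 fold change of 1.03 between these groups with none called, and a summed level of 2619 to 3473 CPM in +MSC-4w against 814 to 3009 CPM in +PBS-4w, beside 4979 to 6160 CPM in Intact. The part of neurons in the change of Nrg1 was not tested.

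Much of the spread of the members was shared within libraries. In 6 of 8 groups the same library was highest in all 5 members, the exceptions being Egr2 in +PBS-2w and Pmp2 in +PBS-4w. The pooled SD within groups was 1.36 on the log2 scale for Prx and 1.73 for Ncmap, above 99.2% and 99.7% of all genes tested, and 1.08 for Egr2 (97.6%), 0.74 for Pmp2 (89.3%) and 0.67 for Pmp22 (85.3%), against a median of 0.32 over all genes. Without Intact replicate 1 Prx was at 0.99 and Ncmap at 1.04, still above 96.9% and 97.6% of genes, and Egr2 at 0.66. The library with most Prx was also highest in the summed 15 other peripheral myelin genes in 6 of 8 groups. That sum was 2587 CPM in Intact replicate 1, against 2978 to 3024 CPM in the other Intact libraries. In the control list of Schwann cell myelination the library with most Prx was highest in 5 groups and lowest in 1. In the immature and repair genes it was highest in 3 groups and lowest in 4. It was highest in fibroblast markers in 4 groups and lowest in 2, lowest in microglia and macrophage markers in 6 and highest in none, highest in endothelial markers in 6, and lowest in central myelin genes in 3 and highest in 2. For sensory neuron markers the library with most Prx was highest in 4 groups and lowest in 3. For muscle markers it was highest in 5 and lowest in 2. Scn10a, a sensory neuron marker, had 278 counts (6.07 CPM) in +MSC-4w replicate 2, against 1, 4 and 3 counts in replicates 1, 3 and 4. Replicate 2 was not the library with most Prx in that group. The part of these cells, of attached nerve root, or of where a segment was cut, in the spread was not tested.

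Genes whose log2 CPM ran most like that of a member over the 26 libraries were found by Pearson r. Nearest to Prx were Cldn19 (Pearson r = 0.99) and Ncmap (0.98). Pmp22 was nearest to Cldn19 (0.97), Prx (0.95) and the sodium channel gene Scn7a (0.92). Among the 3 nearest to Ncmap were Prx (0.98) and Cldn19 (0.97). Pmp2 was less closely matched, with Dhh, the Schwann cell signal to the perineurium, at 0.88 and Plekha4 at 0.85. Egr2 had Plekha4 (0.98), Erbb2, a receptor for neuregulin signals (0.92), and Gldn (0.91), none of them among the 3 nearest to Prx, and its r with Prx was 0.79. These r are a description over libraries that share groups, scaling and Intact replicate 1. Without that library the r of Egr2 with Prx was 0.62 and with Plekha4 0.94, and that of Prx with Cldn19 0.99. Other nearest genes changed place without it. Erbb2 and Gldn moved to ranks 25 and 18 for Egr2 (r of 0.87 and 0.88), Plekha4 to rank 16 for Pmp2 (0.68) and Scn7a to rank 7 for Pmp22 (0.91).

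**Figure D4:**
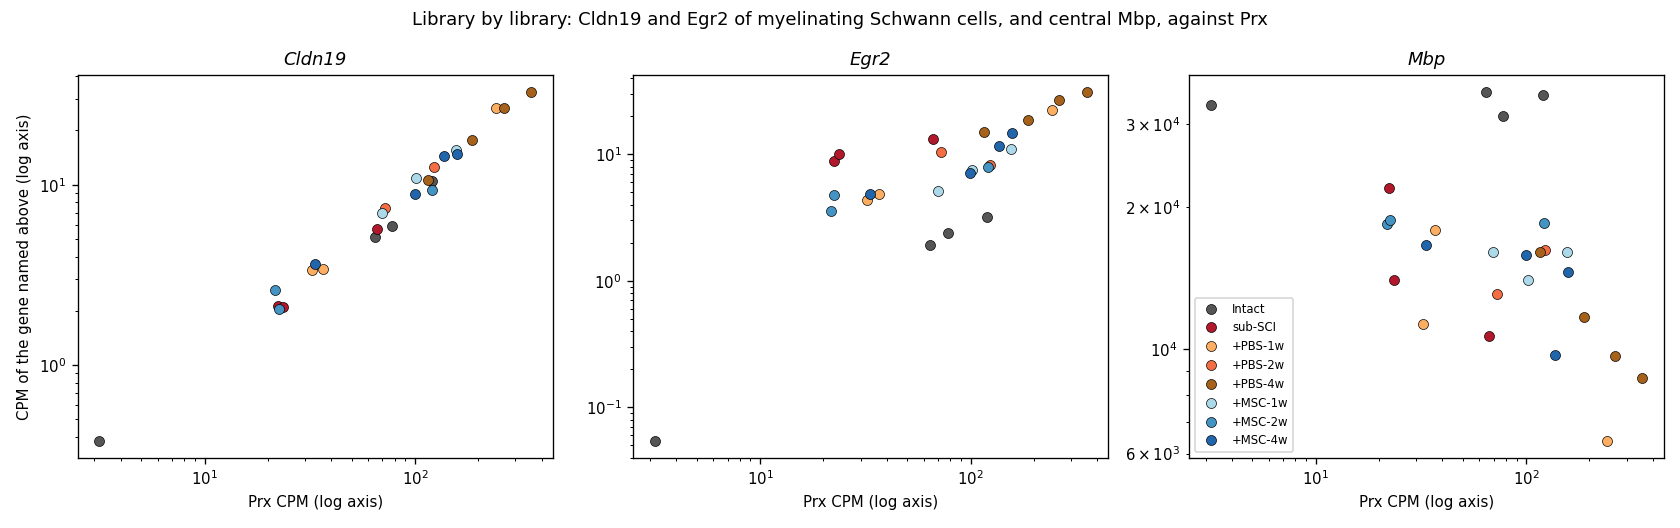
Each point is 1 library; horizontal axes give Prx CPM and vertical axes the CPM of Cldn19, Egr2 or Mbp, all on log scales, with colours for the groups. Cldn19 follows Prx through all groups, Egr2 lies lower in Intact than in injured libraries of like Prx, and Mbp, a main protein of central myelin, is at 32972 CPM in Intact replicate 1, where Prx is 3.16 CPM, and at 31196 to 35073 CPM in the other Intact libraries.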

How the data were processed

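RNA of 26 cord segments was sequenced from poly(A) libraries with paired-end reads, per the study's methods. The authors trimmed reads with Trim Galore 0.5.0, removed those that mapped to human GRCh38, mapped the rest to rat Rnor6 with HISAT2 2.1.0, kept proper pairs with SAMtools 1.9 and counted genes with featureCounts 1.6.4. The files deposited hold the resulting counts, whole reads per gene with no scaling. The annotation release and strand setting are not given in the sources used here, so reads of overlapping genes cannot be told apart. The joint table equalled the 26 single-library files. Groups follow the labels, which give 2 +PBS-2w and 3 +MSC-2w libraries where the study's methods give other numbers of repeats at 2 weeks. The study's methods call the libraries of a condition biological replicates. Labels do not say that replicates are separate rats, so p-values measure the spread between libraries.

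The members and lists were chosen with earlier results of these data known. Genes were filtered by filterByExpr (17990 of 32883 kept; 6513 had no counts), scaled by TMM and fitted in edgeR 4.0.16 (glmQLFit, glmQLFTest) with all 8 groups in 1 model and Benjamini-Hochberg adjustment; called means a log2 fold change beyond 1 with adjusted p under 0.01, the limits of the study. RPKM used the table's gene length. Correlations used log2 CPM with a prior count of 2. Named genes of lists are up to 4 with the smallest adjusted p in sub-SCI against Intact and in +MSC-4w against +PBS-4w. Drp2, Cdh19, Mbp and Scn10a, and nearest genes by correlation, are named beside them. Cldn19, Mbp and Scn10a by library were chosen after their values were seen. Intervals cover counting error only. Of 109 listed names 3 were not in the table. A further gene is not reported here, and lists and nearest genes are given without it. The fit was tested on simulated counts. Alternatives were DESeq2 1.42.0 on all or only the compared groups, edgeR on the compared groups, DESeq2 size factors, other filters, the replicate number as a block, replicate 1 libraries as a term or left out, and leaving out each library.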

Additional observations from a re-analysis of the deposited data

Results flagged for a closer look

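Egr2 in Intact replicate 1 stood far from the other 3 Intact libraries on the log2 scale. The library held 1 count of Egr2, or 0.0546 CPM, where the others held 1.8998, 2.40 and 3.21 CPM, and the gap to the nearest made up 0.843 of the range of the group, past Dixon's 95% limit of 0.829 for 4 samples. Of 15 groups of 4 libraries tested over the 5 members this was the 1 that passed, and chance passes about 1 in 20. Prx was at 3.16 CPM and Ncmap at 0 counts in the same library.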

How the results depend on the processing

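Counts of members called stayed within 1.5 times the reported count in 248 of 283 alternatives. Members were called in the main fit only in sub-SCI, +PBS-1w, +PBS-4w and +MSC-4w against Intact. Elsewhere 0 against 0 was counted as unchanged, so this figure does not measure how stable the calls were. Against Intact, sub-SCI, +PBS-1w and +MSC-4w had 0 called in DESeq2 or edgeR on the 2 groups alone and with at least 10 counts in every library, a filter that removes Egr2 and Ncmap because of Intact replicate 1. In +PBS-2w 1 was called by DESeq2 on all libraries, without a filter, with the replicate block and with a term for the replicate 1 libraries, in +MSC-1w 1 by DESeq2 on all libraries and with that term, and in +PBS-4w 1 by edgeR on the 2 groups, with at least 10 counts and with the replicate block. In +PBS-4w against sub-SCI, DESeq2 on all libraries called 2, DESeq2 on the 2 groups 4 and the libraries other than replicate 1 3; in +MSC-4w against sub-SCI, DESeq2 on the 2 groups called 1. Leaving out 1 library gave 0 to 1 in +PBS-1w, +PBS-2w and +MSC-4w against Intact and in +PBS-4w against sub-SCI, and 1 to 2 in +PBS-4w against Intact.

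Of 1383 values of single members, 56 changed sign, none of them called. Without the replicate 1 libraries, log2 fold changes in +MSC-1w against Intact were -0.0023 for Prx and -0.23 for Ncmap, in +MSC-2w against Intact -0.41 for Pmp2 and -0.72 for Pmp22, in +MSC-1w against +PBS-1w -0.70 for Prx, -0.15 for Pmp2, -0.48 for Pmp22 and -0.45 for Ncmap, in +PBS-4w against +PBS-1w -0.25 for Pmp2, in +MSC-4w against +MSC-1w 0.61 for Prx, and in the change from week 1 to week 4 0.024 for Pmp2. Pmp22 in +MSC-1w against +PBS-1w was -0.0019 with at least 10 counts in every library. With the replicate block or the replicate 1 term, Prx in +MSC-2w against Intact was 0.19 or 0.28, and in +MSC-4w against +MSC-1w Pmp22 was -0.027 or -0.082 and Ncmap -0.048 or -0.10.

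Leaving out 1 library turned the sign in these ranges. Against Intact, Pmp22 was -0.43 to 0.19 in sub-SCI, Prx, Pmp22 and Ncmap were -0.94 to 1.18, -0.28 to 1.03 and -1.56 to 0.92 in +PBS-1w, and Prx, Pmp2, Pmp22 and Ncmap were -1.59 to 0.20, -0.090 to 0.81, -0.48 to 0.44 and -1.68 to 0.22 in +MSC-2w. In +MSC-1w against +PBS-1w, Prx, Pmp22, Egr2 and Ncmap were -0.36 to 1.66, -0.25 to 0.92, -0.78 to 0.78 and -0.11 to 2.11. Pmp2 was -0.80 to 0.073 in +MSC-2w against +PBS-2w, -0.31 to 0.017 in the mean of the 3 weeks, -0.052 to 0.74 in +PBS-4w against +PBS-1w, -0.0076 to 0.54 in +PBS-4w against sub-SCI and -0.56 to 0.0089 in +MSC-4w against sub-SCI, where Egr2 was -0.42 to 0.074. In +MSC-4w against +MSC-1w, Prx, Pmp22 and Ncmap were -0.28 to 0.32, -0.18 to 0.28 and -0.11 to 0.56. The cause was not tested beyond what leaving out a library shows.

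Replicate numbers were not taken as pairs: same-numbered libraries deviated together with correlations of -0.169 to 0.317, and no comparison of 3 or more pairs had all over 0.1. Replicate 1 libraries had 0.131 to 0.317, save in comparisons with a 2-week group (-0.078 to 0.088). In +MSC-4w against +PBS-4w the pairs had 0.171, 0.233, 0.016 and 0.186. What replicate 1 libraries share was not tested. The labels give the number no meaning, so the replicate block stands only for a shared number. With it Egr2 had 2.44 in sub-SCI against Intact (adjusted p = 0.00266 in edgeR). Leaving Intact replicate 1 out of comparisons that hold no Intact library, and counting ranges that do not overlap, were chosen after seeing the data. Depth limits Egr2 and Ncmap in Intact replicate 1, where 3 counts are 0.164 CPM.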
